A study of Homo sapiens with 6 samples.

Results

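The platelet-derived growth factor (PDGF) and fibroblast growth factor (FGF) genes were examined in human lung fibroblasts depleted of ZNF469, a zinc finger gene. The set held the ligand genes PDGFA, PDGFB, PDGFC, PDGFD, FGF2 and FGF7 and the receptor genes PDGFRA, PDGFRB, FGFR1 and FGFR2, found by symbol: 10 of the 23754 features of the table. Of these 10 genes, 9 had reads in at least 1 library and 1, FGFR2, had none. Of the 9 that could be tested, FGF2 was the only one to pass the test, at 115% of its Control level, a call that was lost when any single library was left out. Over all 13991 features tested, 0.400% passed as higher and 0.715% as lower. The 4 PDGF ligands and both PDGF receptors did not pass.

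PDGF ligands are secreted as paired chains and bind the receptor tyrosine kinases PDGFRα and PDGFRβ, which dimerise and signal through the RAS-ERK and PI3K pathways. FGF ligands bind FGF receptors together with heparan sulfate and feed into many of the same pathways. Fibroblasts and other mesenchymal cells carry both kinds of receptor, and in the lung PDGF-A is known for its part in alveolar formation and FGF7 as a factor that mesenchymal cells supply to epithelium.

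IMR-90 is an established line of fetal lung fibroblasts. All cells came from a line carrying a doxycycline-inducible Tet-pLKO-puro hairpin against ZNF469 and kept in 0.5 µg/mL puromycin. Sh-ZNF469 libraries came from cells given 2 µg/mL doxycycline for 4 days (DOX+, n = 3) and Control libraries from cells without doxycycline (DOX–, n = 3). In the labels the Control genotype reads Wild-type; the study's methods describe uninduced cells of the hairpin line, and that description was used. The libraries are described as technical replicates, so p-values measure only the spread between these samples. The effects of the hairpin and of doxycycline cannot be told apart in these libraries, since none received doxycycline without the hairpin, and 1 hairpin was sequenced. In separate experiments the study reports that doxycycline alone did not alter collagen production, and it used another hairpin for RT-qPCR.

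Counts summed to between 34057675 and 36120260 per library. ZNF469 had 117.5, 112.0 and 126.4 CPM (counts scaled to library size by the TMM method) in Control replicates 1 to 3 and 80.4, 80.4 and 79.6 CPM in the Sh-ZNF469 replicates. It fell by 0.57 on the log2 scale (SE 0.0477, edgeR adjusted p = 3.31e-05), to 67.5% of the Control level. Of 8 fibroblast markers, all had reads, and COL1A1, COL3A1, DCN and LUM were called lower in Sh-ZNF469, against 0.715% of all features tested. None was called higher, and 1 was higher at an unadjusted edgeR p under 0.05, against 7.31% of all features tested. The summed level of all 8 was 45887 to 47310 CPM in Control and 40253 to 41587 CPM in Sh-ZNF469. Its part in the results here was not tested. Mural and smooth muscle markers summed to 1773 to 1860 CPM in Control and to 1750 to 1884 CPM in Sh-ZNF469, with none of 8 called by edgeR. At an unadjusted edgeR p under 0.05, 1 of these was higher and 1 lower, against 7.31% and 7.69% of all features tested. DESeq2 called 0 higher and 1 lower, beside 2.77% and 2.85% of all features with an adjusted p. Epithelial markers summed to at most 0.472 CPM, with SFTPC, SFTPB, SCGB1A1 and NKX2-1 at 0 in every library. Endothelial markers summed to 20.1 to 24.4 CPM in Control and 20.6 to 24.0 CPM in Sh-ZNF469 with PECAM1 and CDH5 at 0, and immune markers to 60.7 to 66.8 and 59.1 to 65.3 CPM, nearly all of it CD68, with CD3E and ITGAM at 0. Sh-ZNF469 replicate 2 stood apart from the other libraries on the first principal component (32.8 against -12.6 to 0.524), and Sh-ZNF469 replicate 3 (-29.0) and Control replicate 1 (20.3) stood apart on the second (0.721 to 4.51 for the others).

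Levels were first compared between genes on the deposited FPKM scale, which is per length. In Control libraries the 3 detected receptors ranked highest among the 10 genes. PDGFRB had a mean of 46.7 FPKM ± 1.74 (SD, n = 3), above 90.5% of the features tested, FGFR1 39.2 ± 0.651 and PDGFRA 16.3 ± 0.584. The ligands followed, with FGF2 at 12.7 FPKM ± 0.813, PDGFC at 12.3 ± 0.530 and FGF7 at 9.04 ± 0.492. FGF2 and PDGFC could not be ordered, since their ranges over libraries overlapped in both groups. PDGFA was 5.22 times lower than FGF7, at 1.73 FPKM ± 0.379, PDGFD lay at 0.477 ± 0.106 and PDGFB at 0.0658 ± 0.0209, above only 0.986% of the features tested. Apart from FGF2 and PDGFC, neighbours in this order did not overlap in either group, and the order of the mean levels was the same in Sh-ZNF469 libraries.

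**Figure D1:**
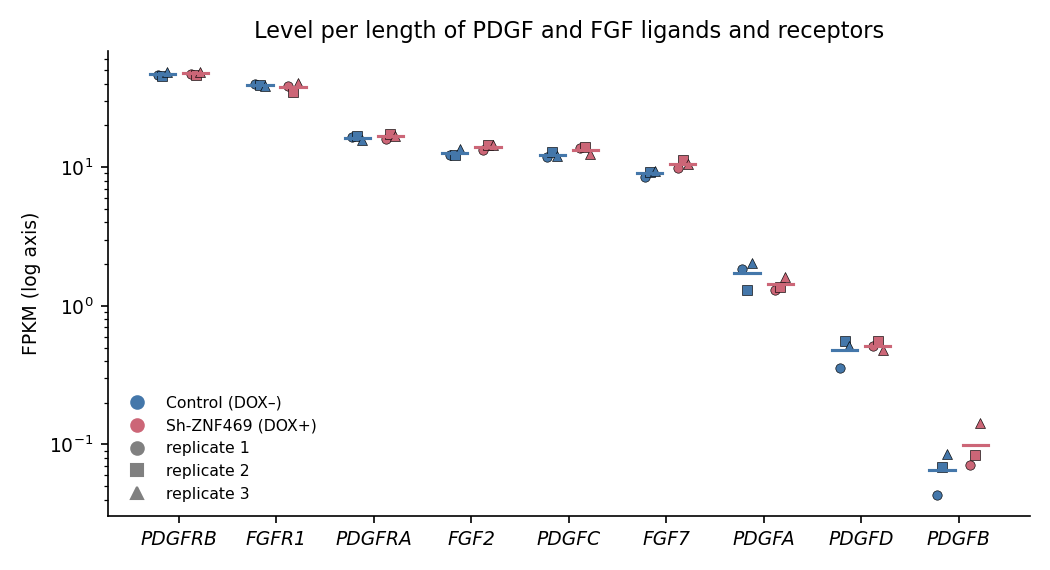
FPKM of the PDGF and FGF genes in each library on a log10 axis, with Control (DOX–) libraries in blue and Sh-ZNF469 (DOX+) libraries in red, marker shapes for replicate numbers and horizontal bars for group means. Receptors and FGF2, PDGFC and FGF7 lie between 8.47 and 48.7 FPKM, PDGFA, PDGFD and PDGFB lie lower, and FGFR2, at 0 in every library, is not drawn.

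Among PDGF ligands, whose genes lie on 4 chromosomes, PDGFC supplied most of the transcript. PDGFC (ENSG00000145431, GRCh38 chr4:156760454-156971799, minus strand) encodes a chain that is secreted in latent form and needs protease cleavage. It made up 84.4% ± 2.48 of the summed PDGF ligand FPKM in Control and 86.7% ± 1.61 in Sh-ZNF469. Its levels were 43.0, 45.6 and 45.5 CPM in Control and 48.2, 50.6 and 45.3 CPM in Sh-ZNF469. The first 2 Sh-ZNF469 replicates lay above every Control library and the third, which stood apart on the second principal component, did not, so the groups overlapped. The log2 fold change, Sh-ZNF469 over Control, was 0.10 (95% interval -0.01 to 0.22, SE 0.0530, edgeR adjusted p = 0.387), and without the third Sh-ZNF469 replicate 0.14 (edgeR adjusted p = 0.212). Without the second Sh-ZNF469 replicate, which stood apart on the first principal component, it was 0.07 (edgeR adjusted p = 0.720).

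PDGFA (ENSG00000197461, chr7:497258-520296, minus strand), the classical ligand of PDGFRα, had 4.69, 3.33 and 5.33 CPM in Control and 3.25, 3.41 and 4.06 CPM in Sh-ZNF469. The lowest Control library lay among the Sh-ZNF469 libraries. Its log2 fold change was -0.32 (95% interval -0.71 to 0.08, SE 0.184, edgeR adjusted p = 0.452), which corresponds to 80.4% of the Control level with an interval of 61.0% to 106%. Without Control replicate 3 it was -0.16 and without Control replicate 2 it was -0.49. The study names PDGFA among matrix regulators with reduced expression in these samples, a decrease that did not pass the test here. Because the study chose PDGFA for display on these samples, its direction is not independent evidence.

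PDGFD (ENSG00000170962, chr11:103907189-104164379, minus strand), a ligand of PDGFRβ that also needs protease cleavage, had 55 to 83 counts in Control libraries and 72 to 86 in Sh-ZNF469 libraries. These are 1.62, 2.36 and 2.38 CPM against 2.24, 2.43 and 1.99 CPM, with the groups overlapping. The log2 fold change was 0.06 (SE 0.211, edgeR adjusted p = 0.921), and the 95% interval of 76.2% to 143% of the Control level leaves changes of that size unresolved. PDGFB (ENSG00000100311, chr22:39223359-39244982, minus strand), whose product binds both PDGF receptors, had only 6, 10 and 12 reads in Control and 10, 12 and 20 in Sh-ZNF469. The sums of 28 reads (exact Poisson 95% interval 18.6 to 40.5, counting error only) and 42 reads (30.3 to 56.8) had overlapping intervals. Its level was 145% of Control with an interval of 67.7% to 309% (edgeR adjusted p = 0.670), so a difference was not detectable at this depth.

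Both PDGF receptors stayed close to their Control levels. PDGFRA (ENSG00000134853, chr4:54229280-54298245, plus strand) encodes PDGFRα and is also used as a fibroblast marker. It had 117.1, 119.6 and 112.8 CPM in Control and 110.2, 121.8 and 116.7 CPM in Sh-ZNF469. The fitted level was 99.8% of Control, with a 95% interval of 93.2% to 107% (SE 0.0458 on the log2 scale, edgeR adjusted p = 0.985). PDGFRB (ENSG00000113721, chr5:150113839-150155872, minus strand), which encodes PDGFRβ, had 290.0, 277.7 and 296.9 CPM in Control and 286.4, 278.7 and 289.9 CPM in Sh-ZNF469. All libraries of both groups shared one range. The fitted level was 98.9% of Control, with an interval of 93.7% to 104% (SE 0.0364, edgeR adjusted p = 0.881). PDGFRB held 74.1% ± 1.39 of the summed PDGF receptor FPKM in Control and 74.0% ± 1.21 in Sh-ZNF469.

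FGF2 (ENSG00000138685, chr4:122826682-122898236, plus strand), or basic FGF, is a ligand without a classical signal peptide and a mitogen of fibroblasts. It had 2940, 2899 and 2792 reads in Control and 3334, 3450 and 3458 reads in Sh-ZNF469, or 86.8, 82.4 and 80.0 CPM against 93.5, 97.3 and 95.5 CPM. Every Sh-ZNF469 library lay above every Control library, as for 9.73% of all features tested. FGF2 rose by 0.20 on the log2 scale (95% interval 0.11 to 0.29, SE 0.0438), from 83.1 CPM ± 3.43 to 95.4 CPM ± 1.93 (n = 3 each), and its edgeR adjusted p of 0.0493 was the 154th smallest of 156 features called. A two-sided exact permutation test of its CPM gave p = 0.1, the smallest that 3 libraries against 3 allow. The call ended when any 1 of the 6 libraries was left out (edgeR adjusted p 0.0700 to 0.203, log2 fold change 0.17 to 0.23). Of 11 other settings with all libraries, 8 kept the call and 3 did not. The adjusted p was 0.0018 with DESeq2, 0.0220 with edgeR without a count filter and 0.384 with limma on FPKM.

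On the FPKM scale FGF2 had 12.3, 12.2 and 13.6 FPKM in Control and 13.2, 14.5 and 14.5 FPKM in Sh-ZNF469, so the third Control library lay above the first Sh-ZNF469 library. With limma on log2(FPKM + 0.1) the log2 difference was 0.15 and the adjusted p 0.384. The ratio of counts per unscaled library total to FPKM, which stands for the transcript length that the FPKM values imply, ranged from 5.81 to 7.11 kb for FGF2 across libraries, a coefficient of variation of 7.01%, and for FGF7 it was 6.63%, against 0.766% to 3.55% for the other 7 genes with reads. Exons of FGF2 overlap those of NUDT6 on the other strand, with 804 exonic bases shared in GENCODE 44, and whether reads were counted by strand is not given in the sources used here. NUDT6 had 2.47 to 3.70 CPM, and with its reads added to FGF2 the log2 fold change was 0.18 with an edgeR adjusted p of 0.0596.

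**Figure D2:**
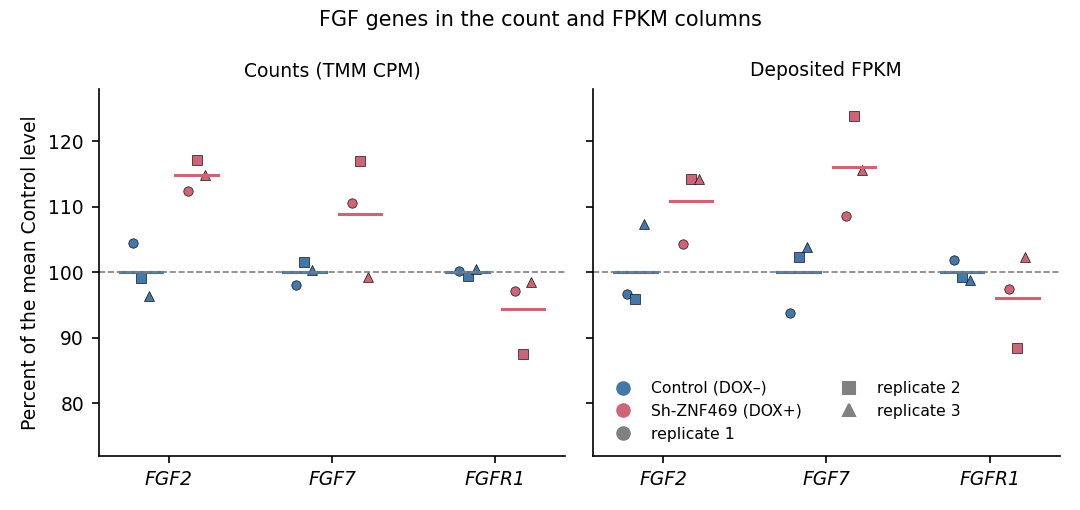
FGF2, FGF7 and FGFR1 in each library as a percent of the gene's mean Control level, from counts (TMM CPM, left) and from deposited FPKM (right), with Control in blue, Sh-ZNF469 in red, shapes for replicate numbers and bars for group means. FGF2 separates the groups in counts and not in FPKM, FGF7 separates them in FPKM and not in counts, and the lowest FGFR1 value is that of Sh-ZNF469 replicate 2 in both.

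FGF7 (ENSG00000140285, chr15:49423237-49488775, plus strand), the keratinocyte growth factor, signals to epithelial cells through a splice form of FGFR2. It had 47.4, 49.1 and 48.5 CPM in Control and 53.5, 56.5 and 48.0 CPM in Sh-ZNF469. The first 2 Sh-ZNF469 replicates were above all Control libraries and the third was within them. Without the third the log2 fold change was 0.19, with an edgeR adjusted p of 0.104. Without the second, which stood apart on the first principal component, it was 0.07, with an edgeR adjusted p of 0.708. With all libraries it was 0.12 (95% interval -0.00 to 0.25, SE 0.0582), with an unadjusted p of 0.0543 and an edgeR adjusted p of 0.345. In FPKM the groups did not overlap, at 8.47, 9.24 and 9.39 FPKM against 9.81, 11.2 and 10.5 FPKM, and limma gave an adjusted p of 0.291.

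FGFR1 (ENSG00000077782, chr8:38400215-38468834, minus strand) encodes the main FGF receptor of fibroblasts. Its levels of 228.8, 227.1 and 229.5 CPM in Control and 222.1, 199.97 and 225.2 CPM in Sh-ZNF469 did not overlap between groups. Over all features tested, 10.6% did not overlap as lower. The log2 fold change of -0.08 (95% interval -0.18 to 0.01, SE 0.0447) missed the threshold, with an edgeR adjusted p of 0.414. Sh-ZNF469 replicate 2, which stood apart on the first principal component, was the lowest, and without it the log2 fold change was -0.03 and the adjusted p 0.825. In FPKM the groups overlapped, at 40.0, 39.0 and 38.8 against 38.3, 34.7 and 40.1.

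FGFR2 (ENSG00000066468, chr10:121478332-121598458, minus strand) was listed with 0 reads in all 6 libraries. A count of 0 allows up to 3 reads, or 0.0831 to 0.0881 CPM per library and 0.0142 CPM over all libraries together, here by library totals without TMM factors. No change could be measured for it, and the ratio of FGFR1 to FGFR2 was not computed.

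Of the 9 genes tested, 1 passed an edgeR adjusted p under 0.05 as higher, against 0.400% of all 13991 features, and 0 passed as lower, against 0.715%; in either direction 156 features, or 1.12%, were called. Limma-voom gave the same counts of 1 and 0, beside 0.400% and 0.700% of all features. DESeq2 gave an adjusted p for 6 of the 9 genes, not for PDGFA, PDGFB or PDGFD, and called 1 higher and 0 lower, beside 2.77% and 2.85% of all features with an adjusted p. At an unadjusted edgeR p under 0.05 there were also 1 and 0, against 7.31% and 7.69% of all features. The groups did not overlap in CPM for FGF2 as higher and FGFR1 as lower, and over all features tested they did not overlap for 9.73% as higher and 10.6% as lower. The median log2 fold change was 0.06 over the 9 genes and -0.0019 over all features tested, with 5 above 0 and 4 below.

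**Figure D3:**
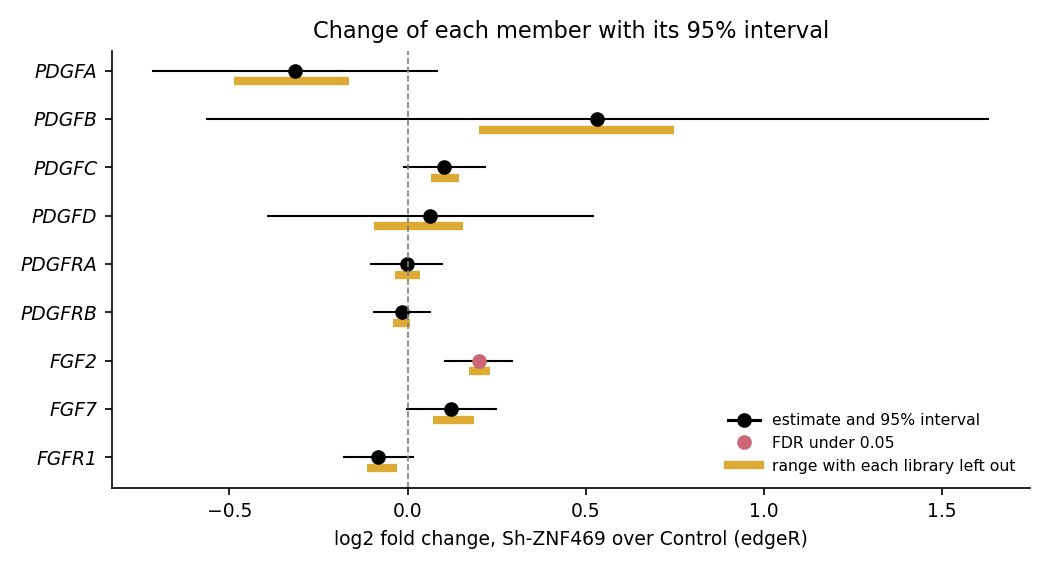
Log2 fold change of each gene, Sh-ZNF469 over Control, from edgeR (points) with its 95% interval (lines) and the range of estimates with each library left out (yellow bars), with FGF2, past the adjusted p threshold, in red. The FGF2 interval of 0.11 to 0.29 lies above 0, and the interval of PDGFB is the widest at -0.56 to 1.63.

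The balance between the genes was compared within each library, as ratios of FPKM that do not depend on library scaling, with 8 ratios tested by two-sided exact permutation tests over the 6 libraries. No ratio could pass after adjustment over the 8, since the smallest p that 3 against 3 allow is 0.1, and adjusted values were 0.4 or 1.0. The ratio of FGF2 and FGF7 to FGFR1 was 0.519, 0.549 and 0.593 in Control and 0.602, 0.740 and 0.621 in Sh-ZNF469. It stands for FGF ligands over FGF receptors of the set, where FGFR2 was at 0. FGFR3, FGFR4 and FGFRL1 were not counted. All Sh-ZNF469 values lay above all Control values, the log2 difference was 0.24 (pooled SD 0.133, exact permutation p = 0.1, adjusted 0.4), and the highest value was that of Sh-ZNF469 replicate 2. Leaving out single libraries gave 0.15 to 0.29, and with FGF1 and FGF5 counted among the ligands the difference was 0.17 and the groups overlapped (exact permutation p = 0.2).

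PDGFA to PDGFB was the other ratio without overlap, at 42.3, 19.0 and 24.1 in Control and 18.4, 16.3 and 11.3 in Sh-ZNF469 (log2 difference -0.84, pooled SD 0.492, exact permutation p = 0.1, adjusted 0.4). Without Control replicate 1, the highest value, the difference was -0.51, and single libraries left out gave -1.09 to -0.51. The ratio rests on the few PDGFB reads given above. PDGFRA to PDGFRB was 0.349 in Control and 0.352 in Sh-ZNF469 as geometric means, a log2 difference of 0.01 (pooled SD 0.0980, exact permutation p = 0.9). Summed PDGF ligands to summed PDGF receptors were 0.231 and 0.240, a log2 difference of 0.06 (pooled SD 0.0629, exact permutation p = 0.3). FGF2 to FGF7 differed by -0.06 in FPKM and by 0.08 in counts, so its sign changed with the scale.

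**Figure D4:**
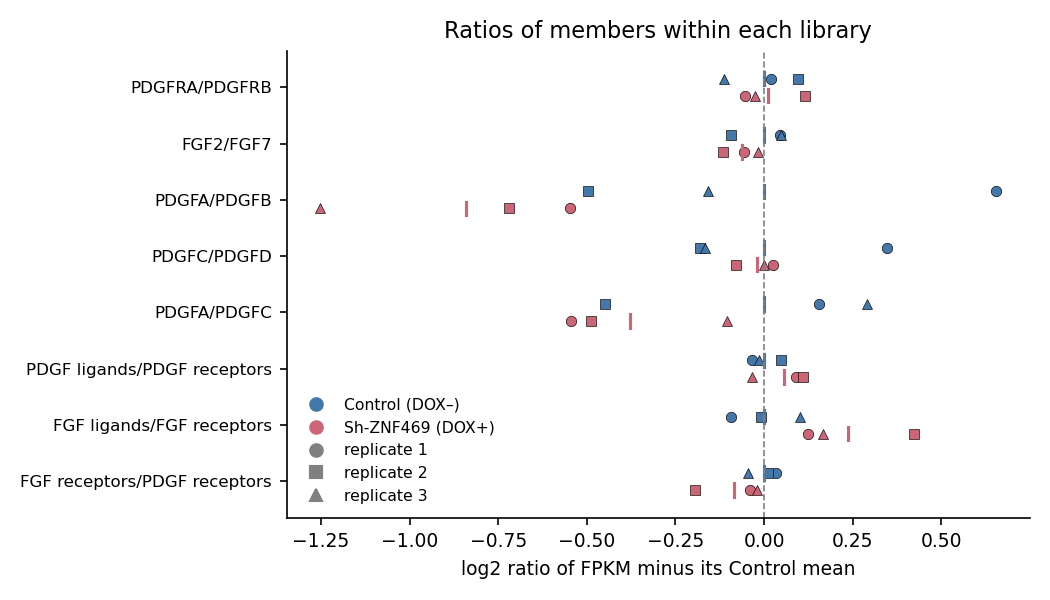
Within-library log2 ratios of FPKM for the 8 gene pairs or classes, each library less the mean of the Control libraries, with shapes for replicate numbers, with Control in blue, Sh-ZNF469 in red and bars for group means. The groups do not overlap for FGF ligands over FGF receptors, which differ by 0.24, and for PDGFA over PDGFB, which differ by -0.84. The FGF receptors here are FGFR1 alone, and the FGF ligands are FGF2 and FGF7.

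Other genes of both pathways were read from 7 lists holding 108 genes, of which 84 had enough reads to test and 12 were at 0 in every library. None passed an edgeR adjusted p under 0.05 in either direction. At an unadjusted p under 0.05 there were 8 higher and 7 lower, which is 15 of 84, against 15.0% of all features tested, and the median log2 fold change was 0.02, with 47 above 0 and 37 below. The groups did not overlap in CPM for 10 as higher and 5 as lower, against 9.73% and 10.6% of all features tested. DESeq2 gave an adjusted p for 67 of the 84 and called 1 higher (FURIN) and 2 lower (PHLDA1 and PLAU), shares near the 2.77% and 2.85% of all features. Limma-voom called none, beside 0.400% higher and 0.700% lower over all features.

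Among the 20 other FGF genes (the list of other FGF ligands), 8 were at 0 (FGF3, FGF4, FGF6, FGF10, FGF13, FGF19, FGF21 and FGF23) and 5 were tested. FGF5 was the highest FGF ligand in FPKM, at 59.1 ± 2.19 in Control and 63.3 ± 3.82 in Sh-ZNF469, above FGF2 and FGF7 and also above PDGFRB. Its CPM values of 324.9, 326.5 and 311.2 against 339.4, 351.5 and 315.3 overlapped (log2 fold change 0.06, edgeR adjusted p = 0.504). FGF1, which binds all FGF receptors, had 34.3 CPM in Control and 32.6 CPM in Sh-ZNF469 (log2 fold change -0.07, adjusted p = 0.561). FGF14, an FGF homologous factor that is not secreted and acts on sodium channels, had 17, 82 and 63 reads in Control and 106, 104 and 102 in Sh-ZNF469. Its groups did not overlap, as for 9.73% of all features tested as higher. The log2 fold change of 0.91 (SE 0.364) had an edgeR adjusted p of 0.265. Without Control replicate 1, the library with 17 reads, it was 0.49.

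Among 6 other receptors and receptor-like genes, 4 were tested and none was called by edgeR or limma-voom, nor had an unadjusted edgeR p under 0.05, and DESeq2 gave an adjusted p for FGFRL1 alone, which it did not call. FGFRL1, an FGF receptor relative without a kinase domain, had 66.4 CPM in Control and 70.0 CPM in Sh-ZNF469 (log2 fold change 0.08, edgeR adjusted p = 0.495). FGFR3 had 5.07 and 5.22 CPM, FGFR4 1.24 and 1.44 CPM, and PDGFRL 5.69 and 6.25 CPM, with edgeR adjusted p values of 0.924, 0.798 and 0.766. KL and KLB, co-receptors of endocrine FGFs, had 13 and 25 reads over all libraries and were not tested.

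Of 11 genes for ligand activation, release and co-receptors, 8 were tested. FURIN, a proprotein convertase that cleaves PDGF-A and PDGF-B precursors, had 161.4 CPM ± 8.19 in Control and 181.1 CPM ± 7.43 in Sh-ZNF469. Its groups did not overlap, as for 9.73% of all features tested as higher. Its log2 fold change of 0.17 had an edgeR adjusted p of 0.116 and a DESeq2 adjusted p of 0.0085. PLAU and PLAT, the plasminogen activators known to process PDGF-D and PDGF-C, named here after their values were seen, each had a log2 fold change of -0.10, with edgeR adjusted p values of 0.15 and 0.282. The median over the 8 was -0.02. Of 13 heparan sulfate genes, 10 were tested, with a median of 0.04, and EXT2, a subunit of the chain polymerase, had 150.5 CPM in Control and 160.3 CPM in Sh-ZNF469 (log2 fold change 0.09, edgeR adjusted p = 0.270).

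Downstream, all 28 adaptor and RAS-ERK-PI3K relay genes were tested, with 17 above 0, 11 below and a median of 0.03. At an unadjusted edgeR p under 0.05, 4 were higher and 0 lower, against 7.31% and 7.69% of all features tested. SOS2, an exchange factor for RAS, had the smallest p, at 31.2 CPM in Control and 35.4 CPM in Sh-ZNF469 (log2 fold change 0.18, edgeR adjusted p = 0.174). All 13 feedback inhibitors were tested, with a median of -0.03, and 1 was higher and 0 lower at that unadjusted p. CBL, a ubiquitin ligase of activated receptors, had 72.8 and 80.4 CPM (log2 fold change 0.14, edgeR adjusted p = 0.156). Of 17 growth factor-induced target genes, 16 were tested, with 6 above 0, 10 below and a median of -0.04. At that unadjusted p, 0 were higher and 3 lower. PHLDA1 had 311.8 CPM ± 3.39 in Control and 284.8 CPM ± 5.77 in Sh-ZNF469. Its groups did not overlap, as for 10.6% of all features tested as lower. Its log2 fold change of -0.13 had an edgeR adjusted p of 0.0825 and a DESeq2 adjusted p of 0.0037.

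**Figure D5:**
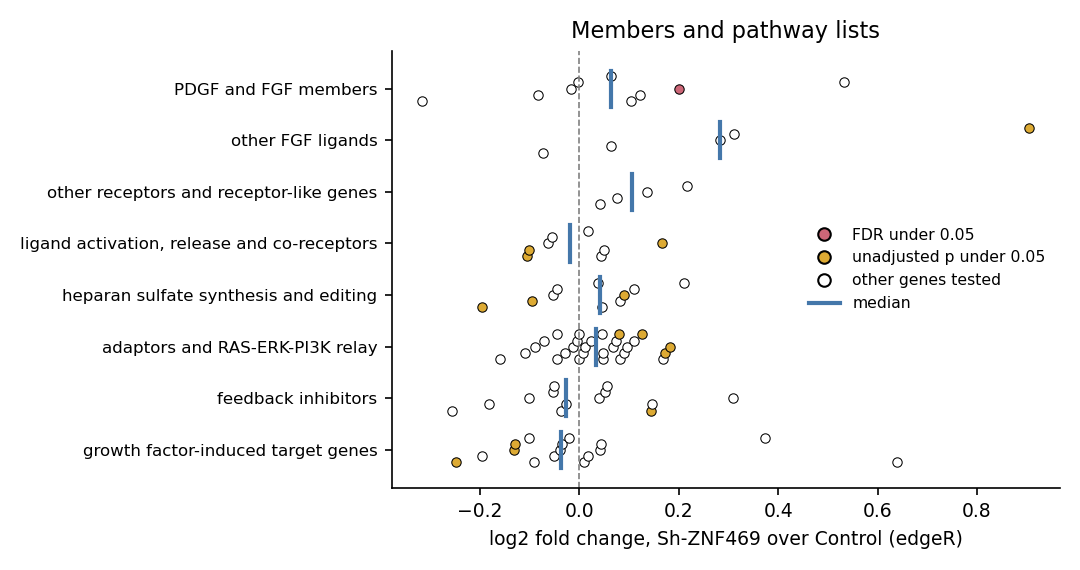
Log2 fold change, Sh-ZNF469 over Control, of each gene tested in the PDGF and FGF set and in 7 pathway lists, with the edgeR adjusted p under 0.05 in red, an unadjusted p under 0.05 in yellow and bars for list medians. FGF2 is the only gene in red, and the list medians lie between -0.04 and 0.28. The highest median, of the list of other FGF ligands, is the value of FGF11, with 106 reads over all libraries.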

How the data were processed

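RNA from 3 Control and 3 Sh-ZNF469 IMR-90 libraries was poly(A)-selected and sequenced as 150 bp pairs. The authors aligned reads to GRCh38 with HISAT2 and used StringTie. Versions, annotation and the counting step are not given in the sources used here. The authors deposited whole read counts per gene, without normalization, and FPKM values, which are per transcript length and sequencing depth. In all, 17 stray lines were dropped, 5090 features were at 0 throughout, and unannotated loci held 0.938% to 0.996% of counts.

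Counts were tested with edgeR 4.0.16 (R 4.3.3; filterByExpr with a minimum count of 10, TMM, quasi-likelihood test without covariates) with Benjamini-Hochberg adjustment over 13991 features and an FDR threshold of 0.05. Standard errors were obtained from each log2 fold change and its F statistic. The common biological coefficient of variation was 0.0731. Ratios used FPKM and exact permutation tests in scipy 1.17.1. Coordinates came from GENCODE 44. The text names all 10 genes, ZNF469 and the gene with the smallest p in each list. Other FGF genes and receptors with a mean of at least 1 CPM are also named. PLAU, PLAT and a few genes at 0 or with few reads were added. The members and lists were chosen with earlier results of these data known. Scripts were tested on simulated data.

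Alternatives were no count filter, library size or upper-quartile scaling, DESeq2 1.42.0, limma-voom and limma 3.58.1 on log2(FPKM + 0.1), an unadjusted p, the study's fold criterion (absolute log2 fold change over 1), removal of a length trend (lowess span 0.3), a replicate block and leaving out each library. Adding NUDT6 to FGF2, a fixed length per gene and further FGF ligands were chosen after seeing the data. Counting error is largest, relative to the level, for genes with few reads such as PDGFB, and intervals on sums of reads cover counting error only.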

Additional observations from a re-analysis of the deposited data

How the results depend on the processing

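ZNF469 kept its direction and its call in every alternative except the study's fold criterion, which its log2 fold change of -0.57 did not reach. The count of 1 PDGF or FGF gene called higher became 0 with limma on FPKM, with NUDT6 reads added to FGF2, under the fold criterion and in each of the 6 fits without 1 library, where both the lowest and the highest count were 0; none was called lower in any setting. Over all features, 56 were called higher and 100 lower; the counts were 127 and 163 without a count filter, 88 and 77 with library size scaling, 260 and 267 with DESeq2, 6 and 24 with limma on FPKM, 2 and 4 under the fold criterion and 1023 and 1076 at an unadjusted p, and 20 to 69 and 54 to 92 without single libraries. The study itself reported far more genes in each direction under its fold criterion, and its methods do not name the test used. The cause of that difference was not tested. The pathway lists had 1 higher and 2 lower with DESeq2 and 8 and 7 at an unadjusted p. Correlations of deviations between libraries of the same replicate number were -0.0241, -0.0352 and 0.0363, against -0.0329 to 0.0583 for different numbers. With 3 libraries per group these cannot decide whether the numbers pair the samples. The replicate block gave 135 and 157 calls over all features and still 1 among the 9 genes tested. The group difference in the log2 ratio of FGF2 to FGF7, -0.06 in FPKM, was 0.0800 from counts or with a fixed length per gene. The log2 fold change of PDGFRA was 0.0177 with library size scaling and 0.0334 with limma on FPKM, and that of PDGFRB 0.0047 and 0.0218, while the median of all features was 0.019 and 0.029. Without single libraries the log2 fold changes crossed 0 for PDGFD (-0.0945 to 0.154), PDGFRA (-0.0366 to 0.0340), PDGFRB (-0.0412 to 0.0061), FGFR3 (-0.0480 to 0.152), FGFR4 (-0.114 to 0.523) and PDGFRL (-0.0228 to 0.310). The causes were not tested, and the fits that leave 1 library out also hold fewer libraries. DESeq2 gave no adjusted p for PDGFA, PDGFB and PDGFD.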
